A study of Mus musculus with 28 samples.

Results

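Messenger RNA levels of 35 genes of the postsynaptic scaffold and its signalling machinery were followed in mice that carry a knocked-out Myt1l gene. The 35 symbols share this function, were chosen with earlier results of these data known, and were looked up in the expression tables of both tissues. The embryonic table held 33 of the 35, since Dlgap3 and Ddn were not analysed here at that age, and the adult table held all 35, out of 14879 genes listed over both tables. Of these members, 30 of 33 passed the filter on low values in embryos (at least 1 CPM, or counts scaled to a common library size, in at least 4 libraries) and 34 of 35 passed it in adults (at least 1 CPM in at least 6 libraries). Shank3 did not pass in either tissue, and Nrgn and Grm2 did not pass in embryos.

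RNA had been sequenced from adult prefrontal cortex (PFC) and from embryonic cortex at E14.5. The embryonic groups were 4 homozygous (Hom, 3 labelled female and 1 male), 6 heterozygous (Het, 3 female and 3 male) and 6 wild-type (WT, 5 female and 1 male) libraries. The adult groups were 6 Het and 6 WT libraries, each with 3 females and 3 males. The line is a Myt1l knockout, and the lost protein, MYT1L, binds DNA in neurons through zinc fingers. The labels name no further allele or treatment in any group, and neither the strain, the deleted exons nor the age of the adults was stated there. The stated purpose was to learn how transcripts and chromatin differ when MYT1L is lost.

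The postsynaptic density is a protein sheet under the membrane of excitatory synapses. MAGUK proteins hold glutamate receptors and adhesion molecules in it, SAPAP proteins tie the MAGUKs to SHANK proteins, and HOMER proteins tie SHANK to metabotropic glutamate receptors and to calcium stores. Calcium that enters through NMDA receptors activates calcium/calmodulin-dependent kinase II, which neurogranin regulates by binding calmodulin, while neuroligins and LRRTM proteins reach across the cleft to presynaptic neurexins. In cortex most of this machinery is built after birth, when synapses form, and E14.5 cortex is still producing its neurons.

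Upstream sequence was matched for 26 of the 35 genes, in 41 windows of 300 bases (RefSeq, GRCm38.p6), each reaching from 250 bases before a start site to 50 after it. They were searched on both strands for AAGTT, the core of the motif that MYT1 family zinc fingers bind, and for the longer forms AAAGTT and AAAGTTT, each of which contains the shorter ones. No window was matched for Shank1, Shank2, Camk2a, Camk2g, Nlgn3, Dlgap2, Grm5, Ddn or Lrrtm2, so these genes were not searched. AAGTT was found in 16 of the 41 windows, against 39.3% of all 32851 mouse windows, AAAGTT in 5, against 14.1%, and AAAGTTT in 2, against 4.74%. The windows with the longest form belong to Dlg1 and Dlgap1 and are shown because they hold it, with AAAGTTT in capitals. The Nrgn window is shown because that gene has the widest gap between the tissues below, and none of the 3 forms occurs in it.
Dlg1, chr16:31663685-31663984, plus strand: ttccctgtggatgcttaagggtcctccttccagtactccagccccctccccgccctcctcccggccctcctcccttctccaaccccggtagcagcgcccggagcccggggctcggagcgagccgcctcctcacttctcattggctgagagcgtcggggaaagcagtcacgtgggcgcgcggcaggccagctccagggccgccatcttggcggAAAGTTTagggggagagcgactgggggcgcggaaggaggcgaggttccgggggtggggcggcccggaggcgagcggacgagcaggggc
Dlgap1, chr17:70561497-70561796, plus strand: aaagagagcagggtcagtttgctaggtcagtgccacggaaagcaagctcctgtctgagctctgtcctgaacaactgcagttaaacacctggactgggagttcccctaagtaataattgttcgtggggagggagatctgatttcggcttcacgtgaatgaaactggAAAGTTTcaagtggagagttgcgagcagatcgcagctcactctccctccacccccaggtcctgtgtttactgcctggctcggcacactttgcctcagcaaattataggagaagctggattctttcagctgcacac
Nrgn, chr9:37552696-37552995, minus strand, printed in the gene's direction: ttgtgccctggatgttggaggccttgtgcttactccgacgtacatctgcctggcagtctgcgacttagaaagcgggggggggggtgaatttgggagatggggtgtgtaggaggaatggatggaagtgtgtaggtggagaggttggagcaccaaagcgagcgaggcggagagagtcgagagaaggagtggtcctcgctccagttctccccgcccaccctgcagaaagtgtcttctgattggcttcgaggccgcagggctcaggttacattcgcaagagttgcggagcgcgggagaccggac
The capitals begin at base 213 of the Dlg1 window and at base 166 of the Dlgap1 window, counted from the 5′ end. Such a match only describes letters, and the libraries measure RNA, not binding.

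Some libraries stood apart, and the results that rest on them are given with and without them. Myt1l measured 20.2 CPM ± 2.35 in Hom embryos (SD, n = 4), 42.8 CPM ± 11.1 in Het embryos (SD, n = 6) and 55.5 CPM ± 8.16 in WT embryos (SD, n = 6). In the PFC it measured 114 CPM ± 6.70 in Het adults and 158 CPM ± 8.48 in WT adults (SD, n = 6 each). Y-linked transcripts went against the labelled sex in 2 Het embryo libraries, those labelled Het F10 and Het M11. Isl1, a transcription factor of the embryonic ventral forebrain that marks tissue outside the cortex, lay above the WT range (0 to 5.11 CPM) in the libraries labelled Hom F01 (16.4 CPM), Hom M02 (16.0 CPM) and Het M07 (12.7 CPM). Fits without these libraries keep only Hom F04 and Hom F09 as Hom libraries. A call lost there cannot be told apart from the loss of libraries. The deposited values were scaled so that library totals say nothing of depth, which is unknown. The labels do not say whether animals of 1 group came from separate litters. The p-values therefore set group differences against the spread between these libraries, whatever their litters.

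In WT tissue, most of the genes sat higher in adult PFC than in E14.5 cortex, by margins that ran from slight for Dlgap4 to very wide for Nrgn. The 6 PFC libraries all lay above the 6 embryonic ones for 28 of the 33 genes in both tables, and none of the 33 lay wholly lower in the PFC. Over all 13071 genes listed in both tables, PFC libraries lay wholly higher for 42.7% and wholly lower for 30.2%. Het tissue gave the same count, with 28 of 33 wholly higher and 0 wholly lower in the PFC, against 39.6% and 27.9% of all genes, and the 5 overlapping genes were the same in both genotypes. The tables were scaled separately, so these are levels side by side with no test. In bulk tissue, fewer cells of a type and less RNA per cell cannot be told apart.

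**Figure D1:**
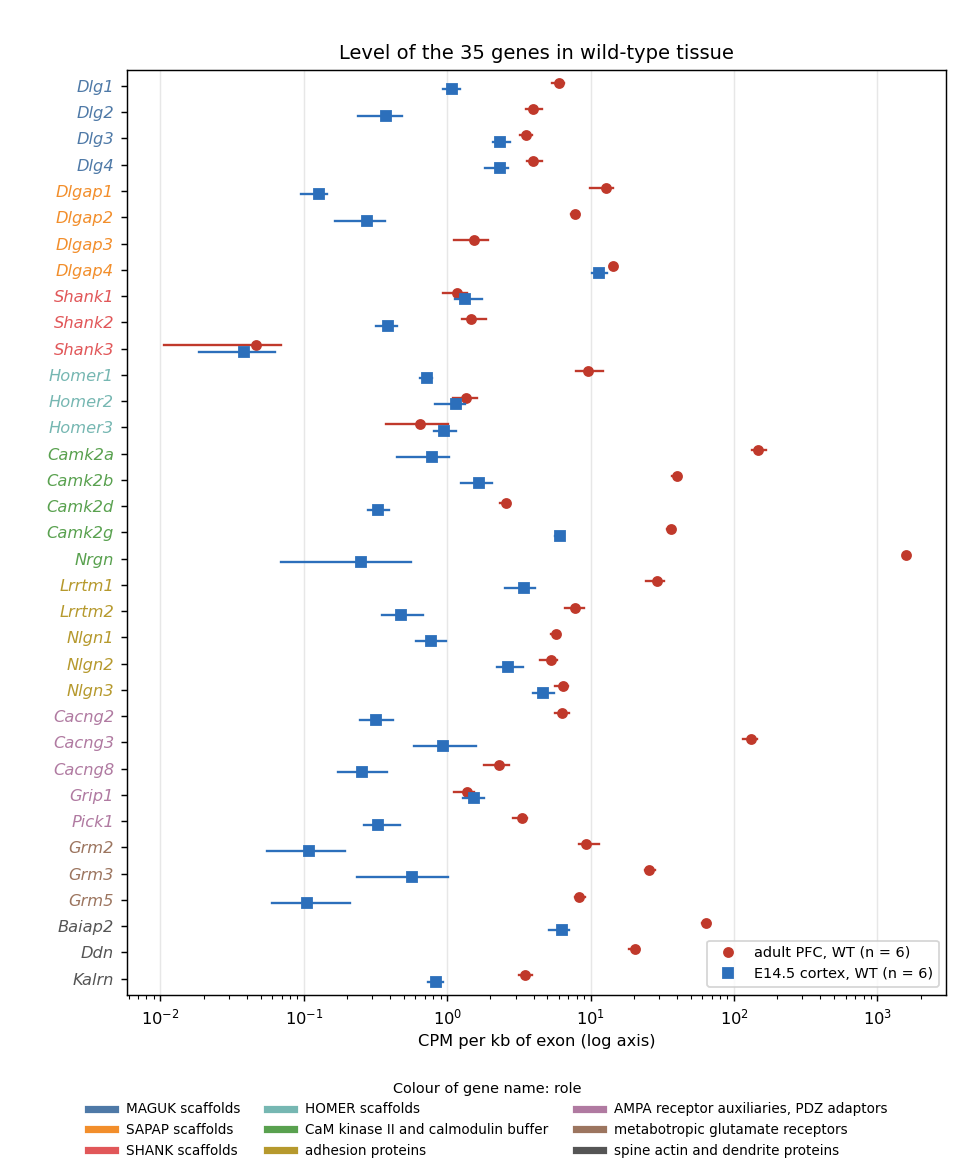
Level of each gene in WT tissue, as CPM per kb of exon on a log axis, with adult PFC as circles and E14.5 cortex as squares (mean of 6 libraries, line from lowest to highest library). Circles lie to the right of squares for most genes, by the widest gap for Nrgn, while Shank1, Shank3, Homer2, Homer3 and Grip1 overlap; Dlgap3 and Ddn have a PFC value only.

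The kinase group and neurogranin spanned the widest range. Nrgn averaged 2301 CPM in WT PFC, against 0.364 CPM in WT E14.5 cortex, where its libraries ran from 0.102 to 0.817 CPM. Camk2a, the alpha subunit of the kinase that dominates the adult forebrain, averaged 1104 CPM in WT PFC and 5.83 CPM in WT E14.5 cortex. Per kb of exon these were the leading genes of the adult set, at 1584 CPM per kb for Nrgn and 148 CPM per kb for Camk2a. The gamma subunit gene Camk2g was the most even of the kinase genes, with 232 CPM in WT PFC and 38.9 CPM in WT E14.5 cortex.

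Genes of metabotropic glutamate receptors and of AMPA receptor auxiliary subunits were also scarce in the embryo. The metabotropic receptor genes averaged between 45.3 and 85.3 CPM in WT PFC, against 0.533 to 1.74 CPM in WT E14.5 cortex. Grm2 and Grm3 encode receptors that inhibit adenylyl cyclase, and Grm5 encodes a receptor that releases calcium from stores and binds HOMER. Cacng3, which encodes an auxiliary subunit that carries AMPA receptors to the membrane, averaged 366 CPM in WT PFC and 2.60 CPM in WT E14.5 cortex. Its relatives Cacng2 and Cacng8 averaged 34.5 and 5.39 CPM in WT PFC, against 1.74 and 0.602 CPM in WT E14.5 cortex. Grip1, a multi-PDZ adaptor of AMPA receptors, overlapped between the tissues, at 11.1 CPM ± 1.32 in WT PFC and 12.4 CPM ± 1.77 in WT E14.5 cortex (SD, n = 6 each).

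Scaffold genes differed within families as well as between them. All 4 MAGUK genes were higher in the PFC, for example Dlg2 with 64.5 CPM in WT PFC and 6.12 CPM in WT E14.5 cortex, while Dlg4, which encodes the best known MAGUK of the adult synapse, had 52.9 CPM in WT PFC and already 31.2 CPM in WT E14.5 cortex. Within the SAPAP family, Dlgap1 averaged 230 CPM in WT PFC and 2.27 CPM in WT E14.5 cortex. Dlgap4 differed little, with 121 CPM in WT PFC and 96.3 CPM in WT E14.5 cortex, and per kb of exon it was the leading gene of the set in the embryo, at 11.4 CPM per kb. Of the SHANK genes, Shank2 was higher in the PFC (15.8 CPM, against 4.15 CPM in WT E14.5 cortex) and Shank1 overlapped (12.3 CPM ± 1.78 in WT PFC and 14.05 CPM ± 2.40 in WT E14.5 cortex, SD, n = 6 each). Shank3 was near the bottom of the range in both, at 0.425 CPM in WT PFC and 0.352 CPM in WT E14.5 cortex.

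Exons of Shank3 have a GC content of 62.4%, and those of the Shank1 gene 61.4%, against a median of 52.1% over the 35 members. Across all 35 members, GC content and WT PFC level showed no clear order (a Spearman rank correlation of -0.06 as a description across genes, which are not replicates). Even so, the 4 members under 10 CPM in WT PFC (Cacng8, Dlgap3, Homer3 and Shank3) had a GC content between 60.2% and 65.1%. Shank1 and Nlgn2, the other members in that range, had 12.3 and 30.4 CPM. Any part of GC content in these levels was not tested. Of the HOMER genes, Homer1 stood out with 116 CPM in WT PFC and 8.62 CPM in WT E14.5 cortex, whereas Homer2 and Homer3 overlapped. The adhesion genes were all higher in the PFC, least so Nlgn3, at 59.9 CPM in WT PFC and 43.2 CPM in WT E14.5 cortex. Of the proteins that shape spines and dendrites, Baiap2, which encodes an actin-bending scaffold, averaged 320 CPM in WT PFC and 31.3 CPM in WT E14.5 cortex, and Kalrn, a regulator of spine actin, 84.2 CPM in WT PFC and 20.1 CPM in WT E14.5 cortex.

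Markers of the cells in the samples also differed by genotype at E14.5. Of the excitatory neuron list, Tbr1 was higher in Hom and Het embryos and Neurod6 was higher in Het embryos, with summed levels of the list from 2019 to 2334 CPM in Hom, from 1830 to 2494 CPM in Het and from 1668 to 2106 CPM in WT libraries. Of 9 pan-neuronal genes Tubb3, which makes up most of the summed level, was lower in both, with sums from 5114 to 5998 CPM in Hom, from 5234 to 6322 CPM in Het and from 5794 to 6861 CPM in WT libraries. The median log2 change of that list was 0.07 in Hom and 0.15 in Het, and the defining marker Rbfox3 had a median of 14.55 CPM in Hom, 13.03 CPM in Het and 11.04 CPM in WT libraries. In Hom embryos Dlx1, 1 of 7 tested GABAergic genes, was higher, with sums from 54.6 to 135 CPM in Hom and from 56.6 to 84.5 CPM in WT libraries, as was Ppp1r1b, 1 of 6 tested ventral forebrain genes, with sums from 27.7 to 43.5 CPM in Hom and from 24.1 to 35.02 CPM in WT libraries. Of 11 progenitor genes Sox2 was higher and Prom1 lower in Hom. The astrocyte gene Aldoc, 1 of 5 tested and most of the summed level, was lower in both, with sums from 897 to 912 CPM in Hom, from 868 to 1134 CPM in Het and from 1080 to 1173 CPM in WT libraries. The median log2 change of the astrocyte list was -0.24 in Hom and -0.02 in Het, and Gja1 had a median of 216 CPM in Hom, 227 CPM in Het and 219.7 CPM in WT libraries. In Het embryos Ogn, 1 of 7 meningeal genes, and mt-Co2 and mt-Co3, 2 of 9 mitochondrial genes, were higher, mt-Co3 also in Hom. No choroid plexus gene was called, although the sums ran from 3047 to 5286 CPM in Het and from 1432 to 4062 CPM in WT libraries. Microglial, endothelial, oligodendrocyte, erythroid and immediate early lists held no called gene in either comparison. The part of these shifts in the values below was not tested. In the PFC the defining marker of adult excitatory neurons, Slc17a7, had a median of 263 CPM in Het and 252 CPM in WT libraries, and 1 gene over all marker lists was called (Hbb-bt, lower in Het).

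Homozygous loss of Myt1l left most of the embryonic postsynaptic transcripts within the spread between libraries, and Shank1 fell. Of the 30 genes tested, 1 was called, that is, passed limma with a Benjamini-Hochberg adjusted p under 0.05 over all 12429 genes tested. Over all those genes 7.6% were called. The median log2 change of the 30 genes was 0.08, against 0.02 over all genes, with 21 positive values and 9 negative ones, and 6 of the 30 had an unadjusted p under 0.05, against 23.2% of all genes. Their median absolute change was 0.17, the same as over all genes to 2 decimals.

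Shank1, on chromosome 7 from 44310253 to 44360572 (GRCm38, plus strand), encodes a large scaffold that joins the SAPAP and HOMER layers. It measured 7.23, 7.28, 10.8 and 13.3 CPM in the Hom libraries. The WT libraries had a lowest value of 11.8 CPM, a median of 13.4 CPM and a highest value of 18.4 CPM. So 3 of the 4 Hom libraries were below each WT library, and the exception was Hom M02. Isl1 was high in Hom M02 and also in Hom F01, which had 7.28 CPM of Shank1. The log2 change was -0.56 (SE 0.16, 95% interval -0.90 to -0.22, limma adjusted p = 0.0349).

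The fall of Shank1 was of similar size in several subsets, but its call was not firm. It was -0.64 without the 3 libraries with high Isl1 (adjusted p = 0.0659), where only Hom F04 and Hom F09 were left as Hom libraries. Among libraries labelled female it was -0.74 (adjusted p = 0.0170). Among libraries whose identifiers share the prefix 14424, the Hom libraries averaged 8.43 CPM (n = 3) and the WT libraries 13.5 CPM (n = 4). With the prefix 14526, the single Hom library had 13.3 CPM and the WT libraries averaged 15.1 CPM (n = 2). Without Hom F01 the change was -0.45 (adjusted p = 0.140) and without Hom F09 also -0.45 (adjusted p = 0.141), and the call was likewise lost without WT F06, WT F09 or WT F12 (adjusted p of 0.0609, 0.0802 and 0.0632).

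**Figure D2:**
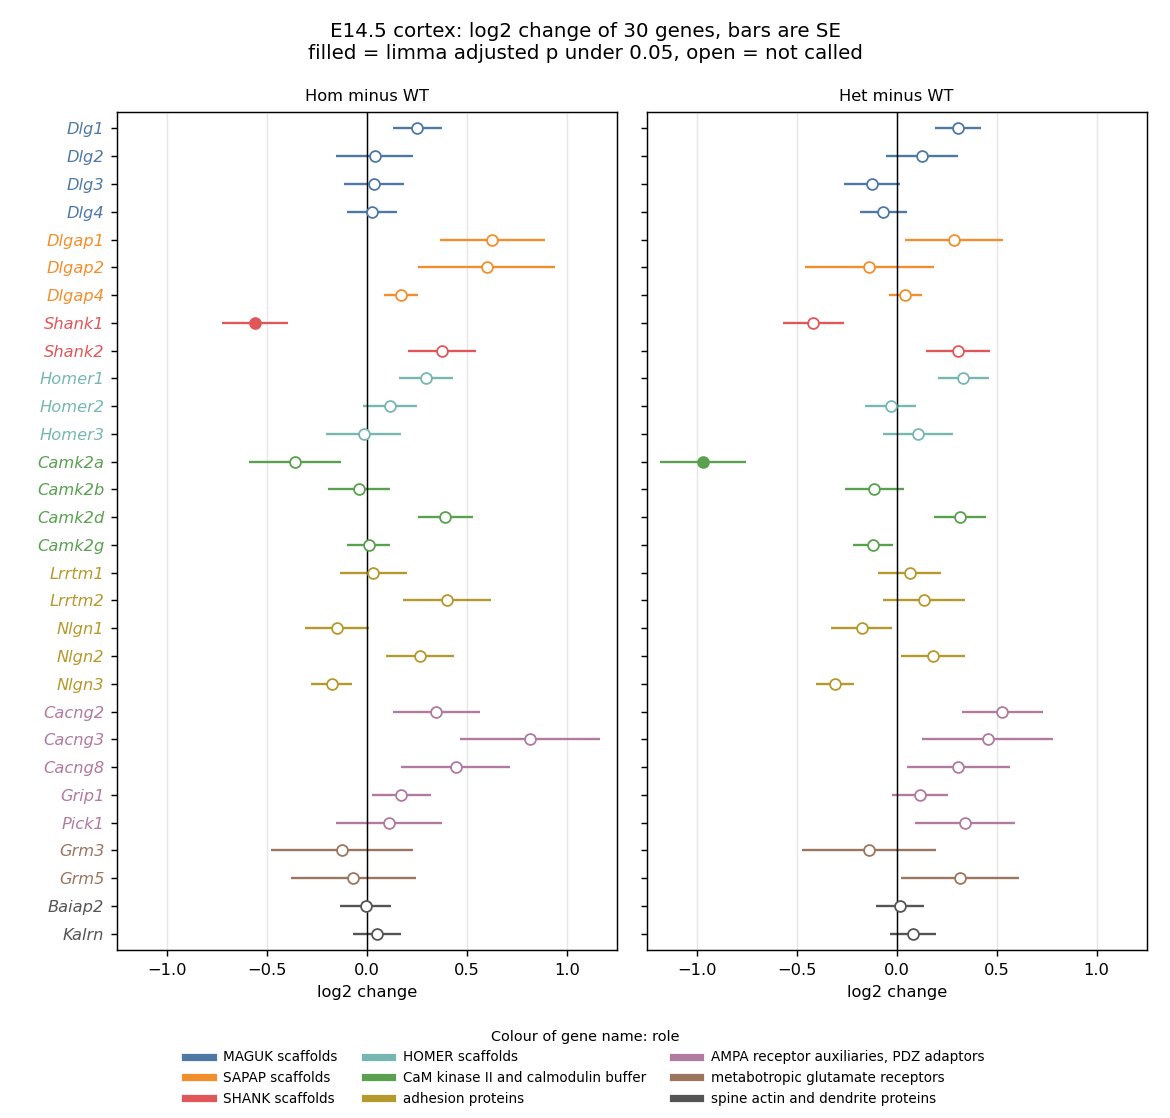
Log2 change of the 30 tested genes at E14.5, Hom minus WT on the left and Het minus WT on the right, with SE bars and gene names coloured by role. Filled points passed limma at an adjusted p under 0.05: Shank1 in Hom and Camk2a in Het.

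Other scaffold genes of the Hom embryos had positive estimates that did not pass. The log2 estimate was 0.38 for Shank2 (SE 0.17), 0.60 for Dlgap2 (SE 0.34) and 0.29 for Homer1 (SE 0.13), with limma adjusted p of 0.184, 0.305 and 0.184. Dlgap1 measured 1.79, 3.82, 4.71 and 5.81 CPM in Hom libraries, against a lowest of 1.70, a median of 2.35 and a highest of 2.62 CPM in WT libraries. Hom F09 lay within the WT range and the others above it. Its log2 change of 0.63 (SE 0.26, adjusted p = 0.142) was 0.16 without the libraries with high Isl1 (adjusted p = 0.827) and 0.94 without Hom F09, where it passed (adjusted p = 0.0355). The MAGUK genes lay between 0.03 (Dlg4) and 0.25 (Dlg1), and the 95% interval of Dlg4 ran from -0.23 to 0.28.

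Among kinase genes, Camk2d was the only one of the 30 whose Hom libraries all lay above the WT libraries, and none had them all below. Over all genes the groups did not overlap for 9.9%. Camk2d, a kinase subunit also used outside neurons, measured 9.29, 9.36, 9.96 and 10.3 CPM in Hom libraries, and a lowest of 6.29, a median of 7.13 and a highest of 8.81 CPM in WT libraries. The log2 change of 0.39 (SE 0.14) missed the threshold (limma adjusted p = 0.0790), which it passed without limma's trend and robust settings (adjusted p = 0.0460). The alpha gene, Camk2a, had a change of -0.36 (SE 0.23, adjusted p = 0.365), and Camk2b and Camk2g lay at -0.04 and 0.01.

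All 5 AMPA receptor auxiliary and adaptor genes had positive estimates in Hom embryos, between 0.11 (Pick1) and 0.82 (Cacng3), and none passed. Cacng3 measured 3.01, 5.12, 5.36 and 5.67 CPM in Hom libraries, against a lowest of 1.63, a median of 2.44 and a highest of 4.42 CPM in WT libraries. All but Hom F09 lay above the WT libraries. With all libraries the limma adjusted p was 0.159 (SE 0.35). Cacng3 passed where the Het libraries were left out of the fit (change 0.75, adjusted p = 0.0338) without the Het libraries whose Y-linked transcripts go against their label (0.79, adjusted p = 0.0476), or among libraries labelled female (0.90, adjusted p = 0.0274). Leaving out WT M03 alone also made it pass (1.11, adjusted p = 0.0384). It did not pass without the libraries with high Isl1 (0.51, adjusted p = 0.594).

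Of the remaining members, the adhesion genes lay between -0.18 (Nlgn3) and 0.40 (Lrrtm2). Nlgn2, the neuroligin of inhibitory synapses, had a change of 0.26 (SE 0.17). Grm3 and Grm5 had changes of -0.12 and -0.07 with SE of 0.36 and 0.31, so changes of moderate size were not detectable at these low levels. Kalrn and Baiap2 had changes of 0.05 and -0.01. The members that missed the filter were at 0.212 CPM (Nrgn), 0.840 CPM (Grm2) and 0.315 CPM (Shank3) in Hom embryos, against 0.364, 0.533 and 0.352 CPM in WT embryos.

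**Figure D3:**
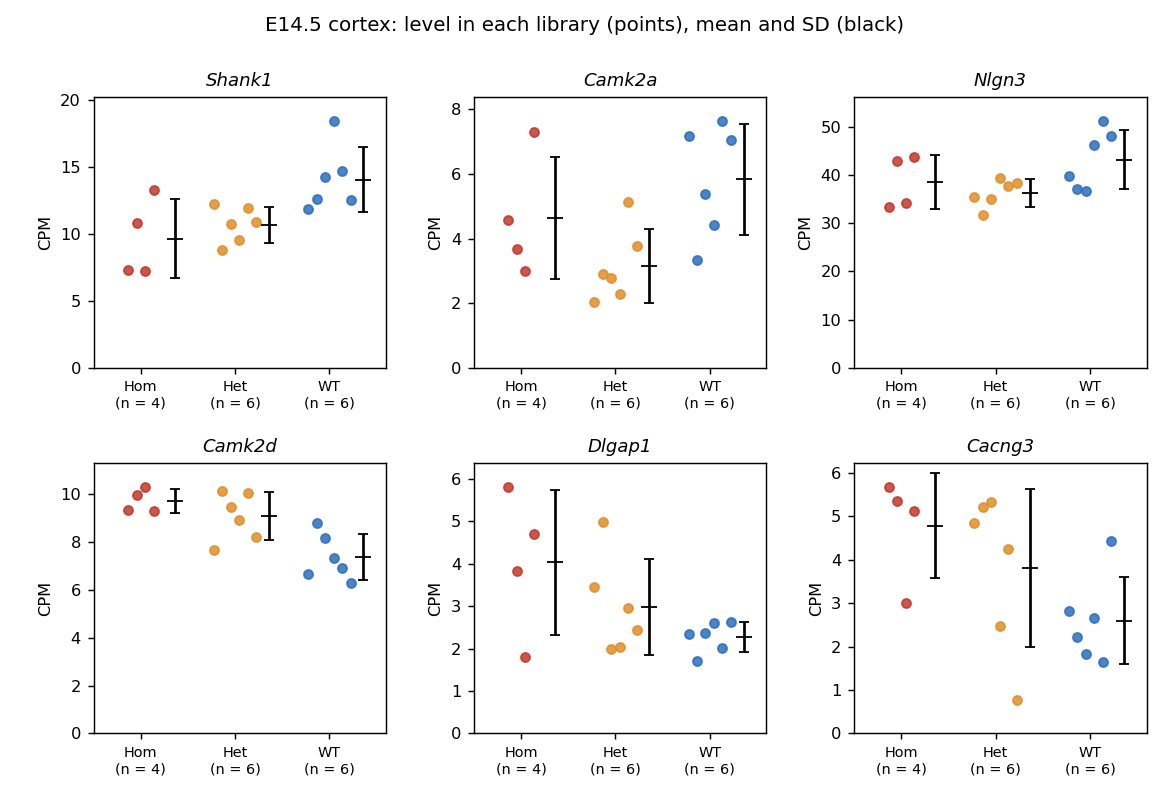
Level of 6 genes in each E14.5 library (points, CPM, axes from 0) in Hom, Het and WT embryos, with the mean and SD in black. Shank1 has 3 of 4 Hom libraries and 4 of 6 Het libraries below the lowest WT library, Camk2a has 4 of 6 Het libraries below it, and Camk2d is the gene whose Hom libraries all exceed the WT libraries.

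In heterozygous embryos Camk2a fell, and it was again 1 gene of the 30 that was called, against 5.83% of all genes. The median log2 change was 0.09, against 0.03 over all genes, with 19 positive and 11 negative values. No member had Het and WT libraries that did not overlap, against 2.57% of all genes. The Het and Hom comparisons share the 6 WT libraries, so their values are not independent of each other.

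Camk2a measured a lowest of 2.03 CPM, a median of 2.85 CPM and a highest of 5.12 CPM in the Het libraries. The WT libraries had a lowest of 3.33 CPM, a median of 6.21 CPM and a highest of 7.63 CPM. All 6 Het libraries were below the WT mean and 4 were below each WT library. The log2 change was -0.97 (SE 0.22, 95% interval -1.41 to -0.53, limma adjusted p = 0.0102).

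This fall of Camk2a kept its size in the subsets examined. It was -0.99 without the libraries with high Isl1 (adjusted p = 0.0103), -1.02 without the Het libraries whose Y-linked transcripts go against their label (adjusted p = 0.0138) and -0.94 among libraries labelled female (adjusted p = 0.0389). With the identifier prefix 14424 the Het libraries averaged 3.43 CPM and the WT libraries 5.85 CPM (n = 4 each), and with the prefix 14526 they averaged 2.59 and 5.80 CPM (n = 2 each). It was called in 16 of 16 fits that left out 1 library, with adjusted p between 0.00501 and 0.0409. In the 4 Hom libraries the gene measured 3.01, 3.68, 4.58 and 7.30 CPM, which overlapped both other groups.

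Nlgn3, an X-linked neuroligin of excitatory and inhibitory synapses, had a lowest of 31.7, a median of 36.6 and a highest of 39.5 CPM in Het libraries. In WT libraries it had a lowest of 36.6, a median of 42.9 and a highest of 51.2 CPM. All 6 Het libraries lay below the WT mean, with 3 of them below each WT library. The log2 change of -0.31 (SE 0.09) missed the threshold (limma adjusted p = 0.0541) and passed it under TMM scaling (-0.33, adjusted p = 0.0412) and with libraries centred on their median (-0.34, adjusted p = 0.0408). It also passed without Hom F04 or without WT F05 (adjusted p of 0.0474 and 0.0438). In the annotation 41.2% of the exon bases of this gene are shared with a transcript named Gm21986 on the same strand, so their reads cannot be told apart.

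Shank1 had a change of -0.42 in Het embryos (SE 0.15, limma adjusted p = 0.104), with 6 of 6 Het libraries below the WT mean and 4 of 6 below each WT library. Its Het libraries ran from 8.77 to 12.2 CPM with a median of 10.8 CPM. On the positive side were Cacng2 at 0.53 (SE 0.20), Homer1 at 0.33 (SE 0.13), Camk2d at 0.32 (SE 0.13) and Dlg1 at 0.31 (SE 0.12), with limma adjusted p of 0.122, 0.114, 0.144 and 0.113. For Cacng2 and Dlg1, 5 of 6 Het libraries were above each WT library. With Camk2a, Nlgn3 and Shank1 these were the 7 members with an unadjusted p under 0.05, against 22.3% of all genes. The 5 AMPA receptor auxiliary and adaptor genes again all had positive estimates, from 0.11 (Grip1) to 0.53 (Cacng2).

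Hom and Het embryos were not separated by any of the 30 genes. None was called, against 0.00805% of all genes, which is 1 gene, and 2 members had an unadjusted p under 0.05 by limma, against 5.12% of all genes. The lowest p belonged to Camk2a, at 3.01 to 7.30 CPM in Hom libraries and 2.03 to 5.12 CPM in Het libraries. Its log2 difference was 0.61 (SE 0.23, 95% interval 0.13 to 1.09, adjusted p = 0.957), and 1 Hom library, Hom M02, lay above each Het library.

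Dlgap2 measured 1.94, 2.66, 3.04 and 3.72 CPM in Hom libraries and a lowest of 0.373, a median of 1.87 and a highest of 3.28 CPM in Het libraries. The groups overlapped, with a log2 difference of 0.73 (SE 0.35, limma adjusted p = 0.957). Dlgap4 measured 95.5, 103, 109 and 125 CPM in Hom libraries and a lowest of 88.1, a median of 96.1 and a highest of 114 CPM in Het libraries. These overlapped too, with a difference of 0.13 (SE 0.09, adjusted p = 0.959). For Shank1 the 95% interval of the difference ran from -0.49 to 0.20.

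In adult PFC no member was called between Het and WT animals, and the estimates were small. Of 34 genes tested none passed limma, against 0.404% of all 12870 genes, or 52 genes. The changes ran from -0.31 (Dlgap3) to 0.30 (Homer2) with a median of 0.02, against 0.01 over all genes. Their median absolute change was 0.07, against 0.10 over all genes, but their median SE was also smaller, at 0.077 against 0.101. Of the 34, 7 had an unadjusted p under 0.05, against 13.6% of all genes. No member had Het and WT libraries that did not overlap, against 0.668% of all genes.

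**Figure D4:**
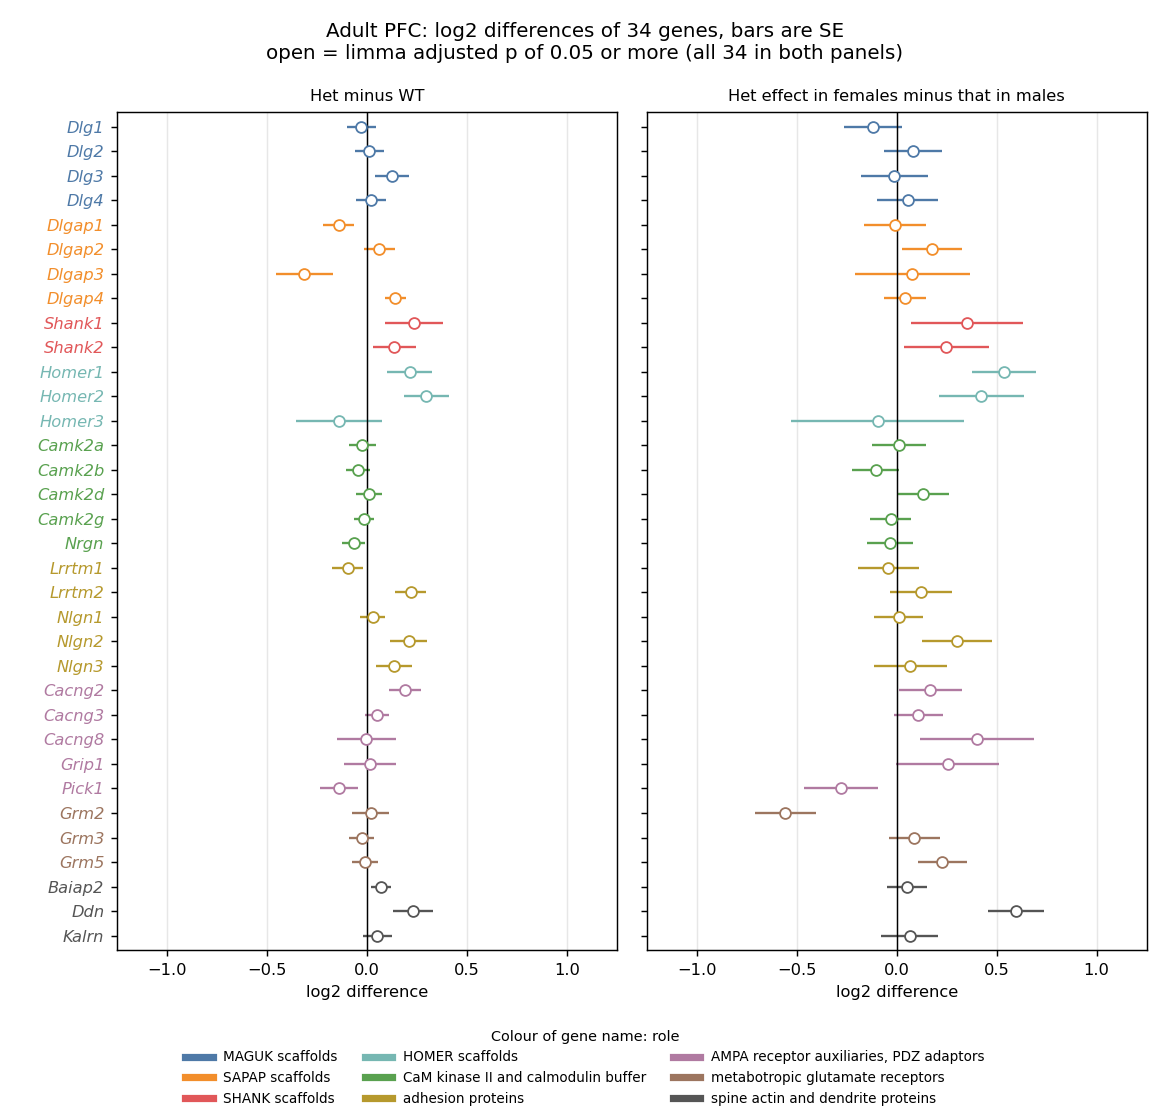
Log2 differences of the 34 tested genes in adult PFC with SE bars, Het minus WT on the left and the Het effect in females minus that in males on the right. All points are open because none passed limma at an adjusted p under 0.05, and Ddn, Homer1 and Grm2 lie farthest from 0 on the right.

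Transcripts of the core adult scaffold and kinase genes were close to WT. Camk2a averaged 1090 CPM ± 133 in Het and 1104 CPM ± 96.3 in WT PFC (SD, n = 6 each), a log2 change of -0.02 with a 95% interval from -0.16 to 0.11. That of Dlg4 was 0.02 with an interval from -0.14 to 0.17, and that of Nrgn was -0.07 with an interval from -0.18 to 0.05. Shank1, which fell in Hom embryos, had a positive estimate here, 0.24 (SE 0.14, limma adjusted p = 0.478), with libraries from 9.68 to 20.5 CPM in Het and from 9.84 to 14.4 CPM in WT PFC.

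The lowest p belonged to Lrrtm2, a leucine-rich repeat protein that binds neurexins. It had a lowest of 48.5, a median of 53.9 and a highest of 64.6 CPM in Het PFC, and a lowest of 40.2, a median of 47.2 and a highest of 53.9 CPM in WT PFC. Although all 6 Het libraries were above the WT mean, 3 of them lay inside the WT range (log2 change 0.22, SE 0.08, limma adjusted p = 0.205). Dlgap4 came next, with a lowest of 126, a median of 133 and a highest of 139 CPM in Het PFC, and a lowest of 116, a median of 121 and a highest of 127 CPM in WT PFC. Only 1 Het library, Het M09, fell inside the WT range (log2 change 0.14, SE 0.05, adjusted p = 0.227).

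Homer2 had a lowest of 16.1, a median of 20.8 and a highest of 26.1 CPM in Het PFC, against a lowest of 13.9, a median of 16.7 and a highest of 20.4 CPM in WT PFC. The 3 Het libraries above each WT library were the 3 labelled female (log2 change 0.30, SE 0.11, limma adjusted p = 0.228). Dlgap3, which links MAGUK to SHANK proteins and is prominent in the striatum, was the most negative, at 5.44 CPM ± 0.668 in Het and 6.95 CPM ± 1.45 in WT PFC (SD, n = 6 each), with 6 of 6 Het libraries below the WT mean (limma adjusted p = 0.328).

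Where the Het effect was set against sex, again none of the 34 genes passed, and nor did any of all genes (0%). By unadjusted p under 0.05 there were 3 members, Ddn, Grm2 and Homer1, against 8.48% of all genes. These 3 are described because of their low p. Groups of 3 libraries separate easily within a sex, and the share of all genes that did so was not counted. Their separation below is therefore a description and adds no evidence. Ddn encodes dendrin, a protein of dendrites and kidney podocytes. It measured 105, 108 and 121 CPM in Het females and 70.5, 78.2 and 81.7 CPM in WT females. In males it measured 61.5, 77.8 and 84.0 CPM in Het and 75.9, 77.7 and 78.5 CPM in WT. The female libraries did not overlap by genotype and the male ones did, and the difference between the effects was 0.60 (SE 0.14, unadjusted p = 0.000276, limma adjusted p = 0.256). Over both sexes the change of Ddn was 0.23 (adjusted p = 0.309), and it passed where Het M09 was left out (0.32, adjusted p = 0.0474).

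Homer1 measured 131, 151 and 151 CPM in Het females and 94.3, 106 and 110 CPM in WT females. In males it measured 111, 121 and 134 CPM in Het and 99.8, 137 and 147 CPM in WT. Its female groups did not overlap and its male groups did (difference 0.54, SE 0.16, limma adjusted p = 0.380). Grm2 went the other way, with 35.6, 43.6 and 44.9 CPM in Het females and 45.2, 47.8 and 55.6 CPM in WT females.

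In males Grm2 measured 47.8, 48.1 and 56.0 CPM in Het and 40.4, 40.6 and 42.0 CPM in WT. So Het libraries were below WT libraries in females and above them in males (difference -0.56, SE 0.15, limma adjusted p = 0.325). All libraries with the identifier prefix 14308 were male, so sex and prefix were mixed unevenly. With the prefix as a block the differences were 0.61 for Ddn, 0.59 for Homer1 and -0.62 for Grm2, with adjusted p of 0.193, 0.267 and 0.249.

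**Figure D5:**
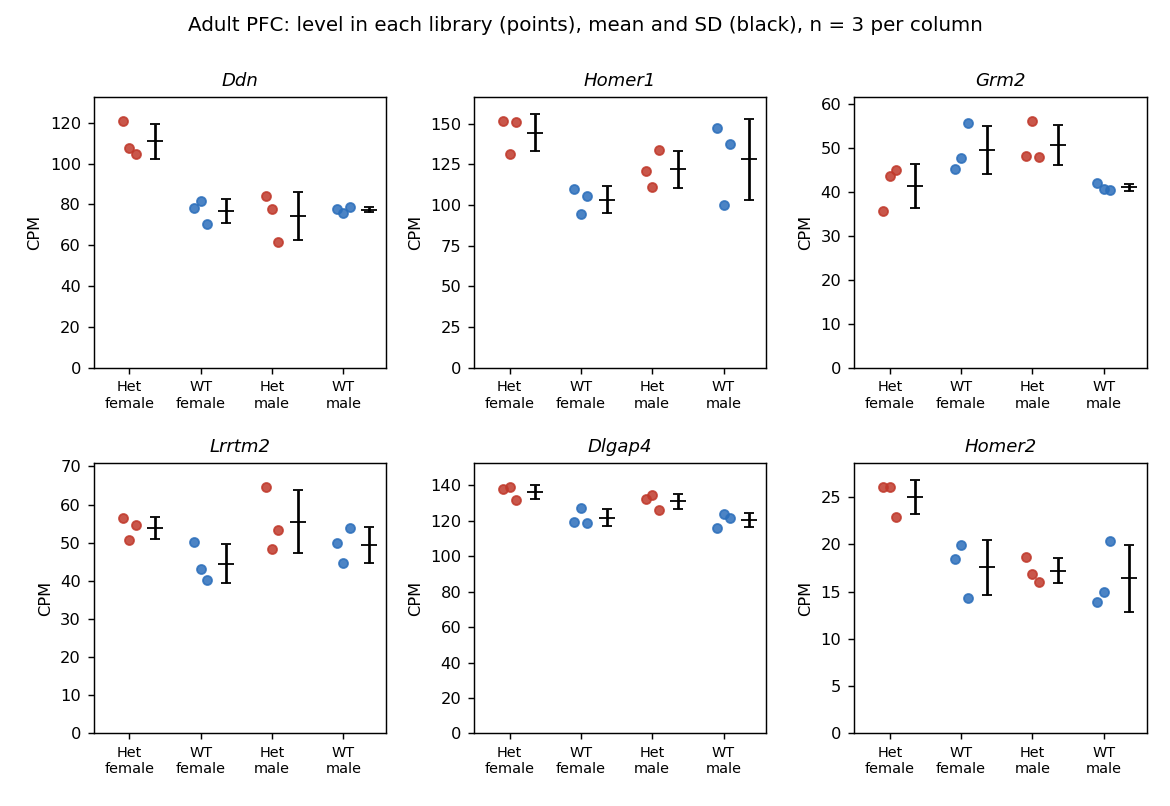
Level of 6 genes in each adult PFC library (points, CPM, axes from 0), split by sex with Het left of WT, and mean and SD in black (n = 3 per column). Ddn and Homer1 are higher in Het than in WT females, Grm2 is lower in Het females and higher in Het males, and the Dlgap4 groups lie close together.

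The wider postsynaptic machinery was tested as well, with 71 further postsynaptic genes and 17 ionotropic glutamate receptor subunit genes. In Hom embryos 2 of 57 tested further genes rose and none fell, against 7.6% of all genes called: Ppp3cb, a catalytic subunit of the calcium-dependent phosphatase calcineurin (54.8 CPM ± 7.02 in Hom, n = 4, and 37.4 CPM ± 1.495 in WT, n = 6, SD), and Lrrtm4, a neurexin-binding adhesion protein (16.9 CPM ± 1.97 in Hom, n = 4, and 11.7 CPM ± 1.69 in WT, n = 6, SD). Their log2 changes were 0.54 and 0.51 (limma adjusted p = 0.00515 and 0.0294). The call of Lrrtm4 was lost in 4 of 16 fits that left out 1 library (Hom M02, Hom F04, Hom F09 or WT F04, adjusted p of 0.0880, 0.0936, 0.0633 and 0.0763) and without the libraries with high Isl1 (0.55, adjusted p = 0.107), and that of Ppp3cb in none of the 16. In 17 alternatives other than leaving out 1 library, Lrrtm4 was called in 11 and Ppp3cb in 16. In Het embryos Ppp3cb rose by 0.43 (SE 0.10, limma adjusted p = 0.0158), 1 of 57, against 5.83% of all genes. That call was lost without Het F07 (0.33, adjusted p = 0.0952) and kept in 13 of the 17 other alternatives. Losses included libraries labelled female (0.43, adjusted p = 0.0603) and a correction for GC content and length (0.32, adjusted p = 0.0736). No tested receptor subunit gene was called at E14.5 (0 of 10 in either comparison), nor was any gene of inhibitory postsynapses there (0 of 7) or in the PFC (0 of 8).

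In Het PFC, of the 16 tested receptor subunit genes 1 fell, Grin1, the obligatory subunit of NMDA receptors, with a log2 change of -0.38 (SE 0.08, limma adjusted p = 0.0439), against 0.404% of all genes called. That call was not firm: it was lost in 6 of 12 fits that left out 1 library (Het F02, Het F04, Het F07, WT F04, WT F10 or WT M11). Over all 12 the change lay between -0.44 and -0.31 and the adjusted p reached 0.152. It was also lost without limma's trend and robust settings (adjusted p = 0.189) and without sex as a covariate (adjusted p = 0.239). The identifier prefix as a block (adjusted p = 0.0903) and a correction for GC content and length (adjusted p = 0.0796) lost it too. The call was kept in 8 of 13 alternatives other than leaving out 1 library. Among these was the block on the number in the title, described at the end, which left 1 residual degree of freedom.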

How the data were processed

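Per the labels' protocols, a Zymo kit gave the RNA and a SMARTer Ultra Low kit the libraries. The submitters' processing notes name Trimmomatic, Bowtie2, STAR, HTSeq and mm10; versions, roles and the strand setting are not given in the sources used. The authors deposited log2 CPM values, 1 table per tissue, and call them values after RUVr, a removal of unwanted variation. CPM were recovered from the deposited log2 values by subtracting, on the linear scale, the lowest value over all libraries of the tissue. Library steps then gave whole numbers within 0.01 for 100% of values. The design foresaw plain CPM. Library totals after this scaling ran from 27827467 to 30811856 at E14.5 and from 19601294 to 21275162 in the PFC, and are not depths.

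Groups came from the genotype and tissue labels. Genes that reached 1 CPM in 4 or more (E14.5) or 6 or more (PFC) libraries were tested on log2(CPM + 0.5) with limma 3.58.1 in R 4.3.3 (trend and robust settings, labelled sex as a covariate, all libraries of a tissue in 1 fit), with Benjamini-Hochberg adjustment over all genes tested. Fold changes are on that scale, which understates changes of low genes. The fit was tested on simulated data.

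The 35 genes and all lists were chosen with earlier results of these data known. Genes given in full are those called, or the 3 lowest p-values where none was called; Camk2d, Nlgn3, Dlgap1, Cacng3 and Dlgap3 were added after their values were seen. Alternatives covered the pseudocount, filter, scaling, voom, covariates, blocks, sample subsets and leaving out each library. Some genes of the wider lists are not reported here.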

Additional observations from a re-analysis of the deposited data

Results flagged for a closer look

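In 6 of 169 groups of libraries checked gene by gene, the highest or lowest library stood apart from the others of its group. Chance flags about 1 in 20 such groups. At E14.5, the library Het M01 was high for 2 genes: Lrrtm2 measured 5.56 CPM there and 2.85 to 3.48 CPM in the other Het libraries, and Grm2 measured 1.86 CPM there and 0.301 to 0.642 CPM in the others. The library Hom M02 had 2.79 CPM of Grm3, against 1.01 to 1.23 CPM in the other Hom libraries. The library Hom F01 had 16.8 CPM of Kalrn, against 22.0 to 22.6 CPM in the other Hom libraries. In the PFC, Het F02 had 15.4 CPM of Pick1, against 19.6 to 21.6 CPM in the other Het libraries, and WT F06 had 178 CPM of Dlgap1, against 232 to 258 CPM in the other WT libraries. None of these genes was called in the comparison with all libraries.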

How the results depend on the processing

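Shank1 in Hom and Camk2a in Het embryos, the members called, kept their sign under each alternative run. For Hom against WT embryos, the number of members called was 1; it was 0 with the directions removed by RUVr as covariates or without the libraries with Isl1 above the WT range (an alternative chosen after seeing the data), 2 with only the 2 groups compared, without the Het libraries whose Y-linked transcripts go against the label or among libraries labelled female, and 0 to 2 when each library was left out. Without trend and robust settings the 1 called gene was Camk2d and not Shank1, and without Hom F09 it was Dlgap1. For Het against WT embryos it was 1; it was 2 under the filter of 5 CPM, median centring, TMM scaling or among females, and 1 to 2 when each library was left out. For Hom against Het embryos and for the sex comparison in the PFC it was 0 throughout, and for Het against WT PFC it was 0 to 1 when each library was left out. The causes were not tested.

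Numbers in the titles were shared between groups by 6 pairs of libraries, whose deviations correlated between -0.49 and 0.18, over 0.1 in 2 pairs. The labels do not say what the number stands for, and 6 pairs are too few to tell whether it marks a shared origin. With that number as a replicate block the members called were 0 for Hom against WT, 0 for Het against WT and 3 for Het against WT PFC (Ddn and Homer1 higher, Dlgap1 lower). That block left only 2 residual degrees of freedom, which measure spread, at E14.5 and 1 in the PFC. In the PFC labelled sex was also left out of that fit. Counts from so few degrees of freedom cannot settle whether a member changed. Cacng3 in Het embryos, called only among females (1.06, limma adjusted p = 0.0196), was -0.08 under that block. Over all settings, the count of all genes called ran from 6 to 1399 for Hom against WT, from 1 to 1176 for Het against WT and from 0 to 337 for Het against WT PFC. The counts of 6, 1 and 337 came from the fits with that block. Depth is unknown, and members under 3 CPM have wide intervals.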
